A study of Mus musculus with 6 samples.

Results

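The genes described here were 10 components of the Notch pathway, chosen by name: the ligands Dll1, Dll3 and Jag1, the receptors Notch1, Notch2 and Notch3, the nuclear effector Rbpj, and the target genes Hes1, Hes5 and Hey1. All 10 were found among the 25576 genes listed in at least 1 library of a mouse spinal cord RNA-seq series. The series asked how the spinal cord transcriptome of a mouse model of spinal muscular atrophy (SMA) differed from that of control mice at postnatal day 4. It held 6 bulk libraries of whole spinal cord, 3 labelled SMA and 3 labelled control. The SMA mice were on the FVB strain and had the genotype mSmn-/-, hSMN22tg/0, that is, no functional mouse Smn gene and a human SMN2 transgene. The control mice were FVB animals of the same age with the genotype mSmn+/-, hSMN22tg/0, so they carried the same transgene and lacked 1 mouse Smn allele. All values were FPKM, that is, fragments scaled by transcript length and by the mapped fragments of a library, a unit that allows levels of different genes in 1 library to be compared per length.

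Notch signalling passes information between touching cells. A ligand of the Delta or Jagged family on 1 cell binds a Notch receptor on its neighbour, proteases release the intracellular part of the receptor, and this fragment joins the DNA-binding protein Rbpj to switch on transcriptional repressors of the Hes and Hey families. In the developing spinal cord the pathway is known for holding progenitors back from becoming neurons and for its part in the formation of glia and blood vessels.

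The labelled tissue was checked with marker genes before the pathway was examined. All 10 genes of a spinal cord list, which holds Hox genes and genes of spinal neurons, were listed, and the motor neuron gene Mnx1 was the only gene of it with a mean under 0.5 FPKM. Smn1, the targeted gene, measured 10.4, 8.64 and 11.9 FPKM in control replicates 1, 2 and 3 and 8.48, 9.30 and 11.1 FPKM in SMA replicates 1, 2 and 3. These ranges overlapped, so Smn1 gave no check of the labels. The labels do not tie each library to an animal of its own, and the study's methods speak of triplicates with an n of 1 per group. The p-values therefore measure only the spread between these libraries, part of which may be technical. The libraries of a group did not all hold RNA of 1 animal, since the sex-linked genes Xist and Eif2s3y, described with their values further on, differed between libraries within both groups.

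Control replicate 2 stood apart from the other libraries. The 16 hepatocyte genes, all of them listed, summed to 8.80% of its FPKM and to between 0.0174% and 0.0375% in the others, and the most abundant of them, Alb, measured 15890 FPKM against 24.6 to 56.2 FPKM. The 8 erythroid genes, led by Hbb-bs, took 4.56% there and 0.304% to 0.516% elsewhere. The 7 neutrophil genes, led by S100a8, took 0.101% against at most 0.00321%. The ependymal list also stood out, through Rarres2 alone, which measured 100.8 FPKM against 1.69 to 3.23 FPKM. In the opposite direction, the 10 neuron genes, led by Stmn2, made up 0.288% of its FPKM and 0.563% to 0.609% in the others, and the 10 astrocyte and radial glia genes, led by Fabp7, made up 0.245% against 0.331% to 0.400%. Among the other libraries the summed share of the latter list separated the groups, at 0.400% and 0.395% in control and 0.337%, 0.354% and 0.331% in SMA libraries. This separation came through Fabp7, at 626.2 and 576.8 FPKM in these control and 440.5, 421.2 and 414.4 FPKM in the SMA libraries. The rest of the list overlapped between the groups. Without control replicate 2, limma put 2 of the 10 genes of the list lower and 1 higher in SMA at an unadjusted p under 0.05. Their median log2 difference was -0.050.

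SMA replicate 3 differed in other ways. Its 7 Schwann cell genes summed to 0.00302% of FPKM, while the other libraries held 0.0202% to 0.0674%. The fibroblast list, led by Col1a2, took 0.0162% there, 0.0275% in SMA replicate 2 and 0.0461% to 0.0557% in the remaining libraries. Xist, which is transcribed from the inactive X chromosome of females, measured 146.0 FPKM in SMA replicate 3 and 100.9 FPKM in control replicate 2, and at most 0.241 FPKM in each of the other libraries. The Y-linked gene Eif2s3y was at 0.0326 FPKM in SMA replicate 3, at 10.1 FPKM in control replicate 2 and between 31.0 and 34.2 FPKM elsewhere. Control replicate 2 thus held both Xist and Y-linked RNA, while SMA replicate 3 held Xist almost without Eif2s3y. The members are therefore given with their value in every library, and their limma differences also without control replicate 2.

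**Figure D1:**
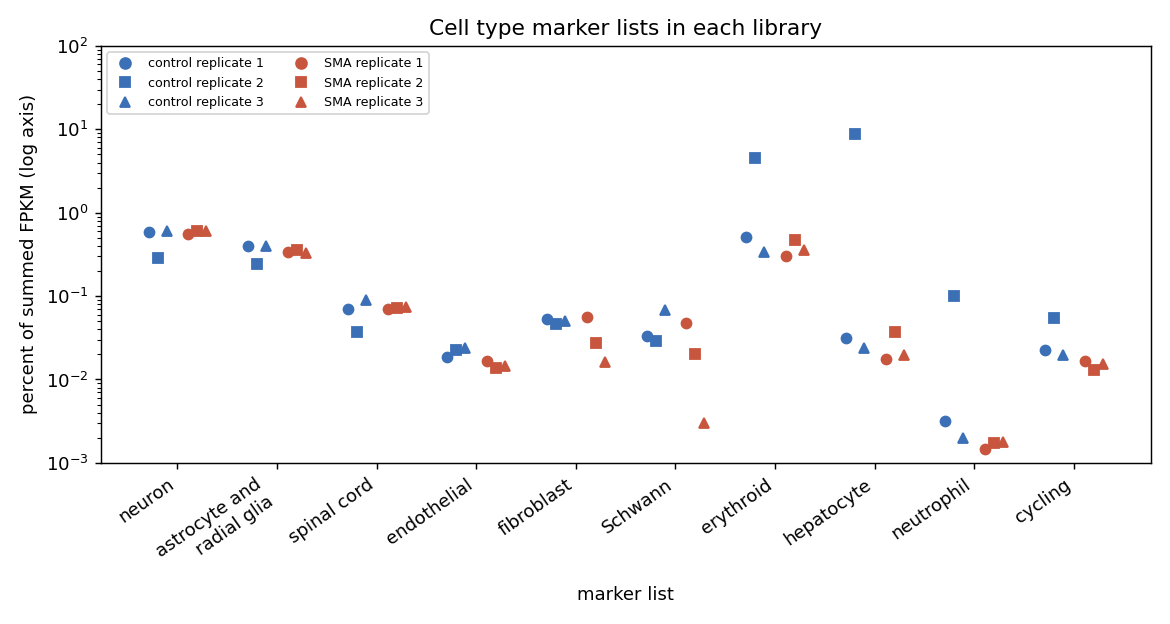
Share of the summed FPKM taken by 10 lists of cell type marker genes, in percent on a log axis, for each of the 6 libraries (circle, square and triangle are replicates 1, 2 and 3). Control replicate 2 holds 8.80% in hepatocyte genes, and SMA replicate 3 holds 0.00302% in Schwann cell genes.

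The microglia list took 0.0264% to 0.0302% of FPKM and the cholangiocyte list, led by Sox9, 0.00328% to 0.00447%. The oligodendrocyte lineage list took 0.188% to 0.356%, with control replicate 3 highest, SMA replicate 1 lowest and overlapping groups. The endothelial list, led by Cldn5, took 0.0188%, 0.0228% and 0.0240% in the control libraries and 0.0167%, 0.0136% and 0.0144% in the SMA libraries, so its groups did not overlap. The mural cell list took 0.0111% to 0.0151% in control and 0.00905% to 0.0107% in SMA libraries. The list of genes of dividing cells, led by Pcna, took 0.0227%, 0.0543% and 0.0199% in control and 0.0166%, 0.0129% and 0.0152% in SMA libraries, again with no overlap and with control replicate 2 far above the rest. In bulk tissue, fewer cells of a type and less RNA per cell cannot be told apart.

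Across all genes, limma on log2(FPKM + 1) called 0 of 17088 tested genes (0%) at an adjusted p under 0.05. At an unadjusted p under 0.05 there were 990 genes (5.79%), 409 lower in SMA (2.39%) and 581 higher (3.40%). None of the 10 members was among them, and all 10 had a mean above the 0.5 FPKM required for testing. The split of the genes at that p moved with the scaling: the lower ones were 41.3% of the total as deposited, 53.5% after rescaling to the same total, 51.7% with median ratio scaling, 34.1% with quantile normalization and 49.4% after rescaling to neuron and astrocyte markers. With 1 library left out, the count was 1605, 1736 and 1752 genes without control replicates 1, 2 and 3 and 544, 397 and 339 genes without SMA replicates 1, 2 and 3. Rescaling to the markers moved the median log2 difference of all genes from 0.04 to -0.08.

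Without control replicate 2, 2 of 16574 genes (0.0121%) passed the adjusted threshold, the small RNA genes Snora74a and Rpph1, which were named after their values were seen. At an unadjusted p under 0.05 there were 1736 genes (10.5%), 862 lower (5.20%) and 874 higher (5.27%) in SMA, and again no member. Nor did any member separate the groups by its values in all 6 libraries, against 2897 of the 17088 genes (17.0%) whose groups did not overlap. The members' median log2 difference was 0.01 beside 0.04 for all genes, after rescaling to neuron and astrocyte markers it was -0.13 beside -0.08, and without control replicate 2 it was -0.06 beside 0.00.

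**Figure D2:**
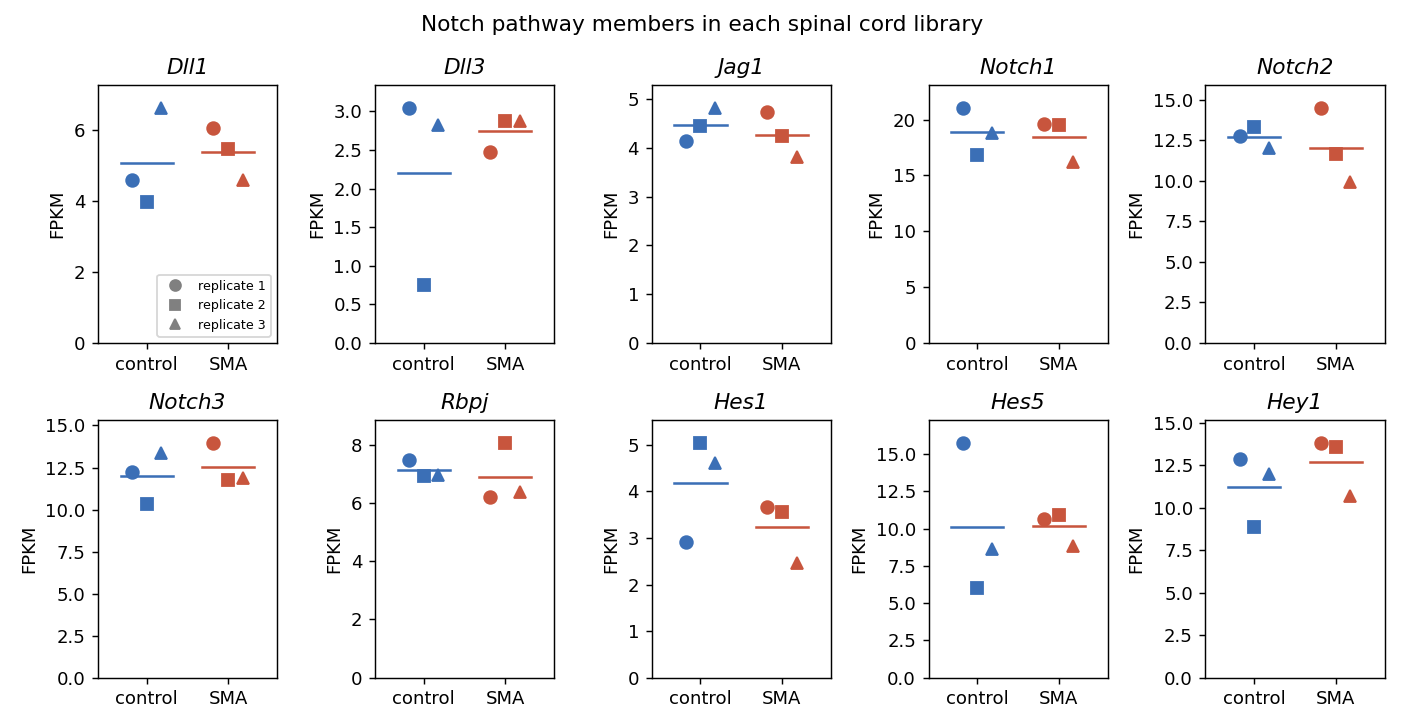
FPKM of the 10 members in each library, with control in blue, SMA in red, circle, square and triangle for replicates 1, 2 and 3, and a horizontal line at the mean of each group. The groups overlap in every panel, and the Dll3 value of control replicate 2, 0.745 FPKM, lies far under the others.

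Among the ligands, Dll1 is the Delta ligand that neighbouring progenitors use to restrain each other (ENSMUSG00000014773, chr17:15367354-15379475, minus strand, a span the files share with an overlapping lincRNA gene). It measured 4.59, 3.98 and 6.61 FPKM in control replicates 1, 2 and 3 and 6.06, 5.45 and 4.60 FPKM in SMA replicates 1, 2 and 3. The highest and the lowest value both came from control libraries, and the SMA values lay between them. The difference was 0.09 on the log2(FPKM + 1) scale with a 95% interval of -0.35 to 0.53 (limma, adjusted p = 0.854), and it was -0.04 without control replicate 2.

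Dll3 is a divergent Delta family member, known to act inside the cell that makes it (ENSMUSG00000003436, chr7:28293553-28302238, minus strand). It measured 3.04, 0.745 and 2.83 FPKM in control replicates 1, 2 and 3, and 2.47, 2.88 and 2.87 FPKM in SMA replicates 1, 2 and 3. The values of 5 libraries were close together, and control replicate 2 had 0.264 of their mean, the lowest such ratio of any member. That library also had the low shares of the neuron list and of the astrocyte and radial glia list described above, and their part in the Dll3 value was not tested. The difference of 0.32 with all libraries (95% interval -0.46 to 1.09, limma, adjusted p = 0.711) was 0.52 with a pseudocount of 0.1 and became -0.07 without control replicate 2, with an interval of -0.38 to 0.23.

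Jag1, a Jagged family ligand that also serves in vessels and glia (ENSMUSG00000027276, chr2:137081456-137116644, minus strand), measured 4.13, 4.46 and 4.81 FPKM in control replicates 1, 2 and 3. In SMA replicates 1, 2 and 3 it measured 4.73, 4.23 and 3.81 FPKM. The groups overlapped, with control replicate 3 highest and SMA replicate 3 lowest. The log2 difference was -0.06 with an interval of -0.34 to 0.22, and without control replicate 2 it was again -0.06.

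Notch1 was the most abundant of the 10 genes in every library (ENSMUSG00000026923, chr2:26445696-26516663, minus strand, a span wider than that of the annotated gene). It measured 21.0, 16.9 and 18.8 FPKM in control replicates 1, 2 and 3 and 19.6, 19.5 and 16.2 FPKM in SMA replicates 1, 2 and 3. Control replicate 2 and SMA replicate 3, the libraries with Xist, were the lowest of their groups, and the groups overlapped between 16.9 and 19.6 FPKM. The log2 difference was -0.03 with an interval of -0.33 to 0.26 (limma, adjusted p = 0.925), and it was -0.11 without control replicate 2.

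Notch2, a receptor found on glia and vascular cells among others (ENSMUSG00000027878, chr3:98013527-98150361, plus strand), measured 12.8, 13.3 and 12.1 FPKM in control replicates 1, 2 and 3. Its values in SMA replicates 1, 2 and 3 were 14.5, 11.7 and 9.96 FPKM. The control libraries were close together and lay inside the wider SMA range. Notch3, the receptor best known from the smooth muscle and pericytes of vessels (ENSMUSG00000038146, chr17:32113429-32166880, minus strand), measured 12.3, 10.4 and 13.4 FPKM in control and 14.0, 11.7 and 11.9 FPKM in SMA libraries. The span given for Notch3 differs from that of the annotated gene and overlaps an antisense gene on the other strand. For Notch3 too the groups overlapped, although the mural cell list had a lower share in all 3 SMA libraries than in the control libraries.

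The log2 difference was -0.09 for Notch2 (95% interval -0.43 to 0.25) and 0.06 for Notch3 (-0.24 to 0.36), and without control replicate 2 they were at -0.055 and -0.04. The 3 receptors together came to 46.0, 40.5 and 44.2 FPKM in control replicates 1, 2 and 3 and to 48.0, 42.9 and 38.0 FPKM in SMA replicates 1, 2 and 3. Notch1 made up 40.8% to 45.6% of that sum, while Notch2 was above Notch3 in some libraries of each group and below it in others. The 3 ligands summed to 9.18 to 14.2 FPKM.

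Rbpj, the DNA-binding protein through which all Notch receptors act in the nucleus (ENSMUSG00000039191, chr5:53466152-53657362, plus strand), measured 7.48, 6.93 and 6.96 FPKM in control replicates 1, 2 and 3. In SMA replicates 1, 2 and 3 it measured 6.19, 8.05 and 6.38 FPKM. The SMA libraries held both the highest and the lowest value. The log2 difference was -0.05 with an interval of -0.34 to 0.24 (limma, adjusted p = 0.871), and it was -0.07 without control replicate 2, which was at 0.988 of the mean of the other libraries.

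Hes1, a repressor that answers to Notch and to other signals (ENSMUSG00000022528, chr16:30064384-30067796, plus strand), measured 2.91, 5.04 and 4.61 FPKM in control replicates 1, 2 and 3 and 3.67, 3.56 and 2.46 FPKM in SMA replicates 1, 2 and 3. Control replicates 2 and 3 lay above all SMA libraries, and control replicate 1 lay inside the SMA range. The log2 difference was -0.28 with an interval of -0.78 to 0.22 (limma, adjusted p = 0.683), and an exact permutation test over the libraries gave p = 0.3 with n = 3 per group, where the smallest possible two-sided p is 0.1. Leaving out control replicate 1 gave -0.47 at an unadjusted p of 0.0394 and an adjusted p of 0.465 in limma, while leaving out control replicate 2 gave -0.16, leaving out SMA replicate 3 gave -0.14 and leaving out both of these gave -0.02. Among the members, only Hes1 reached an unadjusted p under 0.05 with 1 library left out. That was 1 of 10 members without control replicate 1, where 1605 of 17115 genes did so, a similar share. In the exact test with all libraries, p lay between 0.3 and 0.9 over the 10 members.

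Hes5, the Hes gene most closely tied to Notch in neural progenitors (ENSMUSG00000048001, chr4:154960770-154962371, plus strand, a span shared with the overlapping gene Gm20421 on the other strand), is shown with its promoter. RefSeq promoter windows on GRCm38.p6 were available for 8 of the 10 members, in 10 windows, and Hes1 and Hey1 had no entry. The 250 bases before each start were searched for TGGGAA, the core of the sequence that Rbpj is known to bind, and for TTCCCA, the same letters on the opposite strand. Hes5 and Rbpj held matches and the other 6 members with an entry held none. The Hes5 stretch lay at chr4:154960673-154960922 on the plus strand, partly inside an exon of Gm20421, and is printed for this close tie of Hes5 to the pathway, with its matches in capitals.
Hes5: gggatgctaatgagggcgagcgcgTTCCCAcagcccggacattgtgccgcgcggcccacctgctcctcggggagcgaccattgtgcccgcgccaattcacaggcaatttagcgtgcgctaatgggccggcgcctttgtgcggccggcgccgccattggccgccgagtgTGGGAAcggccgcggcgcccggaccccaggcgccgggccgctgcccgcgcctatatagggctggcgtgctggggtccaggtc
The matches began 226 and 82 bases before the start. In Rbpj, the window that ended at position 53590345 of chromosome 5 held TGGGAA 149 bases and TTCCCA 65 bases before its start, and a second, overlapping window of the gene shared the latter match. Of all 32851 promoter stretches of this length, 21.6% held at least 1 match and 2.77% held 2 or more. A match describes the letters only.

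Hes5 measured 15.7, 6.04 and 8.61 FPKM in control replicates 1, 2 and 3 and 10.7, 10.9 and 8.81 FPKM in SMA replicates 1, 2 and 3. The control libraries spanned the whole range, with SMA libraries between them, and the group means were nearly equal, at 10.1 ± 5.02 FPKM in control and 10.1 ± 1.16 FPKM in SMA (SD, n = 3). The log2 difference of 0.09 had the interval -0.63 to 0.81 (limma, adjusted p = 0.915) and was -0.19 without control replicate 2, with an interval of -0.70 to 0.31.

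Hes5 and Hes1 differed between libraries in opposite directions within the control group. Control replicate 1 had the highest Hes5 and the lowest Hes1 of that group, and control replicate 2 the reverse. The ratio of Hes5 to Hes1 FPKM was 5.40, 1.20 and 1.87 in control replicates 1, 2 and 3. In SMA replicates 1, 2 and 3 it was 2.90, 3.07 and 3.58. The SMA ratios all lay between the highest and the lowest control ratio.

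Hey1, a target shared by neural and vascular cells (ENSMUSG00000040289, chr3:8663359-8667256, minus strand), measured 12.8, 8.85 and 11.95 FPKM in control replicates 1, 2 and 3. Its values in SMA replicates 1, 2 and 3 were 13.8, 13.6 and 10.7 FPKM. SMA replicates 1 and 2 were above all control libraries, and SMA replicate 3 was below control replicates 1 and 3. The log2 difference was 0.17 with an interval of -0.23 to 0.57 (limma, adjusted p = 0.703) and fell to 0.02 without control replicate 2.

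**Figure D3:**
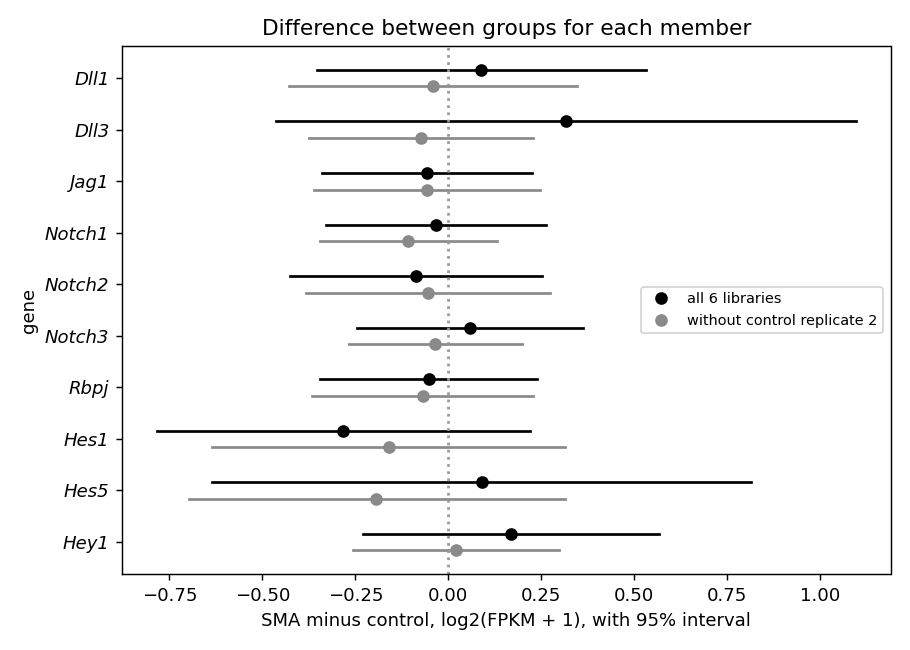
Difference between SMA and control for each member on the log2(FPKM + 1) scale, as point and 95% interval from limma, with all 6 libraries in black and without control replicate 2 in grey. All intervals include 0, and the widest, that of Dll3 with all libraries, runs from -0.46 to 1.09.

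Ordered by mean over the 5 libraries without control replicate 2, the levels were Notch1 at 19.0 FPKM, Notch3 and Hey1 each at 12.6 FPKM, Notch2 at 12.2 FPKM and Hes5 at 11.0 FPKM. Below them came Rbpj at 7.01 FPKM, Dll1 at 5.46 FPKM, Jag1 at 4.34 FPKM, Hes1 at 3.44 FPKM and Dll3 at 2.82 FPKM. Thus the receptors, Hey1 and Hes5 were above the effector, and the ligands and Hes1 were lowest. The ranges over libraries of neighbours in this order overlapped except at the steps from Notch1 to Notch3 and from Hes5 to Rbpj. With control replicate 2 included, Notch2 stood ahead of Notch3 and Hey1, the order was otherwise the same, and the ranges of Hes5 and Rbpj overlapped.

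The members also differed in how far they varied. Over the same 5 libraries the coefficient of variation was 26.2% for Hes5, 23.8% for Hes1 and 16.3% for Dll1. It was 13.5% for Notch2, 11.0% for Rbpj and 10.2% for Hey1. Jag1 at 9.66%, Notch1 at 9.38%, Notch3 at 7.77% and Dll3 at 7.46% varied least among these 5 libraries. With control replicate 2 included, Dll3 at 35.1% varied most of the 10, ahead of Hes5 at 32.1%, Hey1 was at 15.9%, and Jag1 at 8.66% varied least.

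To compare the members within a library, each was set against the mean of the 10 members in its own library. Because 1 FPKM is added before the log, this removes a common scaling only in part, least for genes of low FPKM. The largest differences between groups on this log2 scale were those of Hes1 and Dll3. Hes1 was at -1.21, -0.28 and -0.68 in control replicates 1, 2 and 3 and at -0.96, -0.96 and -1.15 in SMA replicates 1, 2 and 3, a difference of -0.30 (exact permutation test, p = 0.4) that became -0.08 without control replicate 2. Dll3 was at -1.16, -2.07 and -1.23 in control and at -1.39, -1.20 and -0.99 in SMA libraries, a difference of 0.29 (exact permutation test, p = 0.5) that was 0.48 with a pseudocount of 0.1 and became 0.00 without control replicate 2. Without control replicate 1 both differences were larger, at -0.54 for Hes1 and 0.46 for Dll3. Hey1 had the smallest p of the 10, with a difference of 0.15 (exact permutation test, p = 0.2) that fell to 0.10 when control replicate 2 was left out. The groups overlapped for each of the 10 on this scale too. Hes5 lay between 0.35 and 0.42 in the SMA libraries and between -0.06 and 0.89 in the control libraries.

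**Figure D4:**
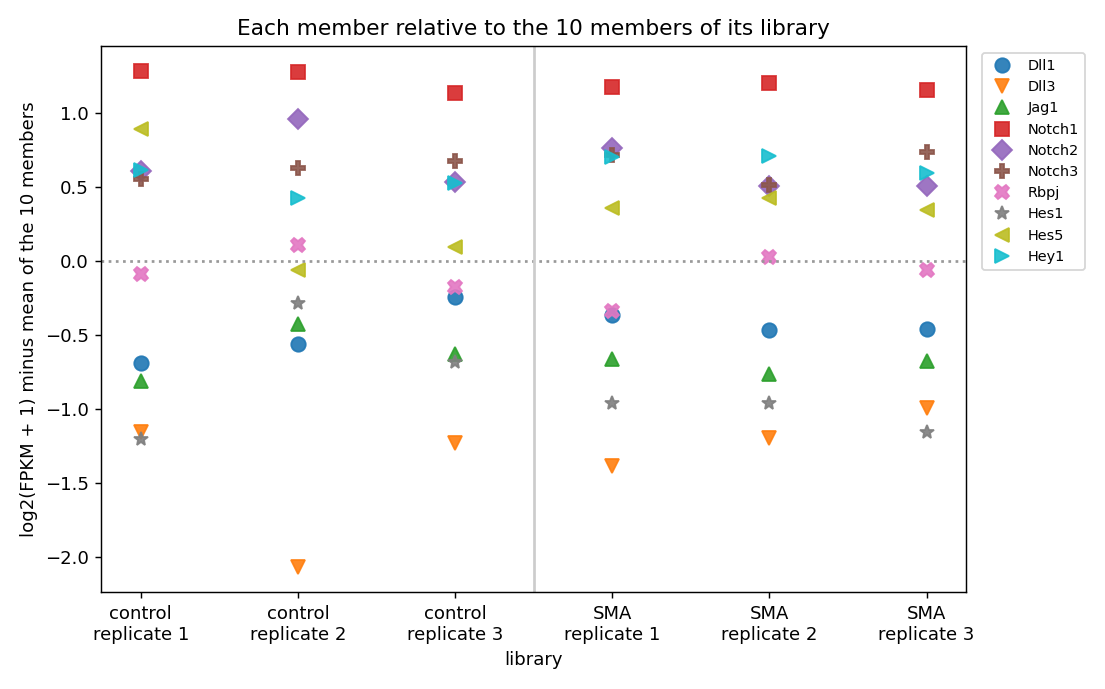
Each member as log2(FPKM + 1) minus the mean of the 10 members in the same library, with libraries along the horizontal axis and a symbol per gene. Dll3 lies at -2.07 and Hes1 at -0.28 in control replicate 2, and Hes5 at 0.89 in control replicate 1.

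The mean of log2(FPKM + 1) over the members was 3.17, 2.88 and 3.17 in control replicates 1, 2 and 3 and 3.19, 3.15 and 2.95 in SMA replicates 1, 2 and 3. Control replicate 2 held the lowest value of 5 members and SMA replicate 3 that of 4. These were the libraries whose marker lists stood apart and which had Xist, and the part of either in the lower level was not tested. After rescaling each library to equal neuron and astrocyte markers, control replicate 2 held the highest value of 6 members and the lowest of 1, Dll3, while SMA replicate 3 held the lowest of 5. On that scale Notch1 was at 19.2, 23.2 and 17.4 in control and at 18.9, 18.1 and 15.4 in SMA libraries, and Hes1 at 2.67, 6.93 and 4.28 and at 3.55, 3.31 and 2.34.

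Genes with the same pattern over libraries were sought among the 15407 genes, the members left out, that averaged 1 FPKM or more, by the Pearson correlation of log2(FPKM + 1) with the mean z-score of the members over the 6 libraries. The highest was Hist2h3c1, a replication-dependent histone gene of a multicopy family, with r = 0.99, at 6.07, 0 and 6.26 FPKM in control and 6.96, 4.65 and 0.109 FPKM in SMA libraries. Denr, which acts in translation, had r = 0.99 and measured 12.4 FPKM in control replicate 2, 12.2 FPKM in SMA replicate 3 and 14.6 to 15.6 FPKM elsewhere. Ano6 and the heparan sulfate enzyme gene Ndst1 followed with r = 0.99 and 0.98, then 2900076A07Rik with r = 0.97. All 5 were low in control replicate 2 and SMA replicate 3, and the r is a description of 6 values after a search over many genes.

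The wider pathway was read from 46 other genes grouped by role, of which 45 passed the expression filter and Hes3 did not. Of these, 1 was lower and 2 were higher in SMA at an unadjusted p under 0.05 in limma, which is 6.67% beside 5.79% of all genes, and none passed the adjusted threshold. For 8 of the 45 (17.8%) the SMA and control values were fully separate, beside 17.0% of all genes. Without control replicate 2 the counts were 2 lower and 3 higher, 11.1% beside 10.5% of all genes. The list as a whole thus lay near the background by each count, and its median log2 difference was 0.09, 0.00 without control replicate 2 and -0.04 after rescaling to neuron and astrocyte markers.

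Mfng, which adds sugar to Notch receptors and so alters their response to ligands, was the gene lower in SMA. It measured 2.44, 2.06 and 2.42 FPKM in control replicates 1, 2 and 3 and 1.50, 1.72 and 1.25 FPKM in SMA replicates 1, 2 and 3. All SMA libraries lay below all control libraries, with a log2 difference of -0.41 (limma, unadjusted p = 0.0230, adjusted p = 0.683) and -0.47 without control replicate 2. The endothelial list was lower in the same libraries, with all 10 of its genes below 0 in log2 difference and 5 at an unadjusted p under 0.05, and its part in the Mfng value was not tested. The unadjusted p of Mfng was 0.130 with quantile normalization, 0.0568 and 0.0561 without control replicates 1 and 3, and 0.0603 and 0.0890 without SMA replicates 1 and 3. The log2 difference of Mfng was -0.315 with quantile normalization and between -0.418 and -0.341 in the other fits of that sentence. Its relatives Lfng and Rfng had log2 differences of 0.09 and 0.12, and of 0.035 and 0.03 without control replicate 2, and Poglut1, the most abundant gene of the group, was at 15.0 to 20.1 FPKM.

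The genes higher in SMA were Numbl and Dtx2. Numbl, a relative of the Notch antagonist Numb, measured 16.8, 12.7 and 19.4 FPKM in control replicates 1, 2 and 3 and 23.2, 20.7 and 22.0 FPKM in SMA replicates 1, 2 and 3. Its log2 difference was 0.43 (limma, unadjusted p = 0.0312, adjusted p = 0.683) and 0.27 without control replicate 2. Dtx2, a ubiquitin ligase of the Deltex family, measured 4.25, 3.94 and 4.26 FPKM in control and 5.17, 5.45 and 5.56 FPKM in SMA libraries, with a log2 difference of 0.31 (limma, unadjusted p = 0.0170, adjusted p = 0.683) and 0.28 without control replicate 2. Neither gene overlapped between the groups. The unadjusted p of Numbl was 0.0754 after rescaling to the same total, 0.0562 without control replicate 1 and 0.0964, 0.0554 and 0.0782 without SMA replicates 1, 2 and 3. In these fits its log2 difference was 0.387 to 0.467. The unadjusted p of Dtx2 was 0.258 after rescaling to neuron and astrocyte markers, 0.0652 and 0.0714 without SMA replicates 2 and 3, and 0.0931 without control replicate 2 and SMA replicate 3. The log2 difference of Dtx2 was 0.185 after that rescaling and 0.263 to 0.305 in the other fits. Without SMA replicate 1, 2 or 3 the number of genes at an unadjusted p under 0.05 among the 45 or 44 tested was 1, 1 and 0. Over all genes the count fell as well, to 544 of 17093, 397 of 17117 and 339 of 17098.

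Numb itself measured 6.35, 10.3 and 8.57 FPKM in control replicates 1, 2 and 3 and 6.43, 5.81 and 6.58 FPKM in SMA replicates 1, 2 and 3, with overlapping groups. Its log2 difference was -0.35 with all libraries and -0.21 without control replicate 2, and without control replicate 1 it was -0.52 (limma, unadjusted p = 0.00772, adjusted p = 0.465). Dtx3, the most abundant of this group, was at 34.9 to 50.7 FPKM with a log2 difference of 0.06 that turned to -0.08 without control replicate 2.

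Without control replicate 2, Mib1 and Ncstn joined these genes. Mib1, the ubiquitin ligase that readies ligands in the sending cell, measured 34.1, 30.4 and 35.4 FPKM in control and 37.2, 40.3 and 39.9 FPKM in SMA libraries. Its groups did not overlap, and the log2 difference was 0.23 with all libraries and 0.17 without control replicate 2 (limma, unadjusted p = 0.0308, adjusted p = 0.437). It was 0.08 after rescaling to neuron and astrocyte markers, at an unadjusted p of 0.518 in limma, and 0.15 without control replicate 2 and SMA replicate 3, where the unadjusted p was also above 0.05. Ncstn, a subunit of the gamma-secretase that frees the receptor fragment, measured 21.5, 19.2 and 24.1 FPKM in control and 20.4, 18.6 and 20.5 FPKM in SMA libraries, with a log2 difference of -0.11 with all libraries and -0.19 without control replicate 2 (limma, unadjusted p = 0.0478, adjusted p = 0.471). It was -0.03 without control replicate 3, and without control replicate 2 and SMA replicate 3 its unadjusted p was 0.0671. The smallest subunit of that complex, Psenen, was the most abundant of the protease genes, at 34.2 to 44.6 FPKM.

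Dner, a neuronal ligand of the wider family, was the most abundant of all the listed pathway genes, at 142.6, 82.5 and 133.6 FPKM in control and 143.7, 149.8 and 147.9 FPKM in SMA libraries. All SMA libraries were above all control libraries and the log2 difference of 0.34 shrank to 0.09 without control replicate 2. After rescaling to neuron and astrocyte markers the difference of Dner was 0.187 (limma, unadjusted p = 0.0464, adjusted p = 0.774). The neuron list had a median log2 difference of 0.284 with all libraries and 0.028 without control replicate 2, and its part in the Dner value was not tested. Notch4 and Dll4, known from endothelial cells, were at 1.21 to 2.56 and 1.09 to 2.16 FPKM with overlapping groups. Among other targets Hey2, at 6.48 to 11.2 FPKM, had the highest mean over the libraries but not the highest value in each of them.

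**Figure D5:**
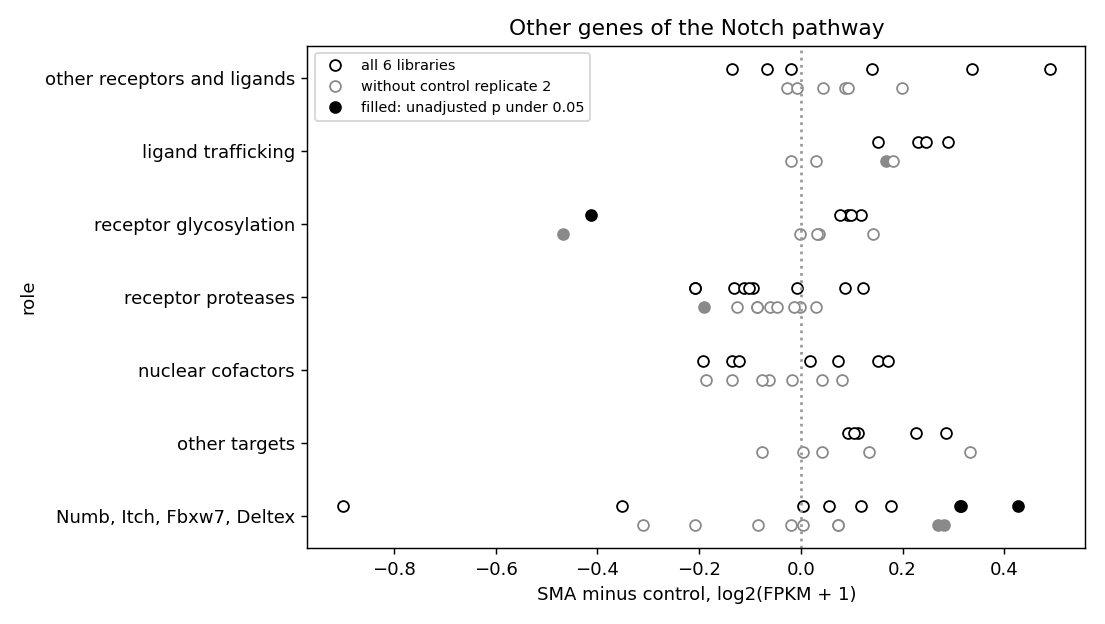
Log2 difference between SMA and control for 45 other genes of the Notch pathway, grouped by role, with all 6 libraries in black and without control replicate 2 in grey, and filled where the unadjusted limma p is under 0.05. Mfng is filled at -0.41 and Numbl and Dtx2 at 0.43 and 0.31.

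The proneural genes that Hes repressors hold down in progenitors were barely present at this age. Of the 6 listed, Neurog1, Neurog2, Atoh1 and Neurod4 had means under 0.5 FPKM and were not tested. Neurod1 measured 2.66, 1.25 and 2.13 FPKM in control replicates 1, 2 and 3 and 2.18, 1.81 and 2.49 FPKM in SMA replicates 1, 2 and 3. Its groups overlapped, with a log2 difference of 0.09 that turned to -0.10 without control replicate 2.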

How the data were processed

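Total RNA of whole spinal cord was sequenced from ribosomal RNA-depleted, strand-specific libraries. Per the labels and the study's methods, the authors aligned reads with HISAT2 to mm10 and deposited FPKM for each library from Cufflinks; whether counting used strand is not given in the sources used here. The depth in reads is unknown. The commonest ratio between libraries among values under 0.15 FPKM gave relative depths of 1.00 to 1.15 against SMA replicate 1. Genes absent from a library were set to 0 FPKM.

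Genes averaging 0.5 FPKM or more over the libraries fitted were tested as log2(FPKM + 1), a scale that understates changes of low genes, with limma 3.58.1 (lmFit, eBayes with trend, two-sided, Benjamini-Hochberg over all genes tested) in R 4.3.3, and single members also by exact permutation. The study's methods name a count-based test, which FPKM do not permit. Alternatives were another pseudocount, other filters, 4 scalings, a replicate block and leaving out libraries; leaving out control replicate 2 and SMA replicate 3 together was chosen after seeing the data.

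The members, the pathway and marker lists and the rule for named genes were chosen with earlier results of these data known. Named were the members, of each other pathway list the most abundant gene and those at an unadjusted p under 0.05 with all libraries or without control replicate 2, the most abundant gene of marker lists that moved, the 5 genes most like the members' mean, and Smn1; Lfng, Rfng, Numb, Notch4, Dll4, Xist and Eif2s3y were added after their values were seen. Some genes that this rule takes are not reported here.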

Additional observations from a re-analysis of the deposited data

How the results depend on the processing

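The count of genes at an adjusted p under 0.05 stayed at 0 under every pseudocount, filter, scaling and block setting; leaving out 1 library gave 0 to 2, and leaving out control replicate 2 and SMA replicate 3 gave 1. For members at an unadjusted p under 0.05, leaving out 1 library gave 0 to 1 and all other settings 0. The count of other pathway genes, 3 as reported, was 5 of 46 with no filter, where Hes3 and Mib1 were added, beside 1373 of all 25576 genes. With 1 library left out it was 0 to 5, while the count over all genes ranged from 339 to 1752. The members' median log2 difference ranged from -0.13 after rescaling to neural markers to 0.07 without SMA replicate 3.

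Signs of single members changed without a passed threshold in any setting. Rescaling to neural markers gave -0.080 for Notch3, -0.035 for Dll1 and -0.042 for Hes5; with no change of sign it also gave -0.177 for Notch1, -0.228 for Notch2, -0.184 for Jag1, -0.187 for Rbpj and 0.031 for Hey1. Quantile normalization gave 0.017 for Jag1. Without control replicate 2 and SMA replicate 3, Notch2 was at 0.063, Notch3 at -0.001, Dll3 at -0.100, Jag1 at 0.004 and Hes5 at -0.104. With 1 library left out, the ranges were -0.040 to 0.265 for Dll1, -0.074 to 0.531 for Dll3, -0.121 to 0.005 for Jag1, -0.108 to 0.054 for Notch1, -0.217 to 0.032 for Notch2, -0.035 to 0.135 for Notch3, -0.157 to 0.009 for Rbpj and -0.193 to 0.431 for Hes5. The cause of these changes was not tested. Hes1 kept a negative and Hey1 a positive sign in all 16 settings, at -0.473 to -0.021 and 0.022 to 0.280. Hes1 was nearest to 0 without control replicate 2 and SMA replicate 3, and Hey1 without control replicate 2.

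Same-numbered libraries had correlations of deviations from the group means of -0.04, 0.02 and 0.08, and differently numbered libraries -0.055 to 0.043. Control replicate 2, which stood apart, enters the group mean behind every control deviation. These values therefore cannot decide whether the numbers pair the samples. With the replicate block, 1 other pathway gene (Numbl, no longer Mfng and Dtx2) and 0 members had an unadjusted p under 0.05, and 659 genes in all, against 990 without it.

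With 3 libraries a group and no read counts, the precision is that of the intervals given, and a p that missed the threshold does not show that levels were equal.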
